A study of Sus scrofa with 6 samples.

Results

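The genes described here make and break down glutathione, the main thiol antioxidant of the cell, and feed it with cysteine. They are MAT2A and AHCY of the methionine cycle, CBS and CTH of transsulfuration, GCLC, GCLM and GSS of glutathione synthesis, GSR of glutathione recycling, and CHAC1 and CHAC2 of glutathione breakdown. All 10 listed symbols matched 1 row each of the 20731 genes in the table, and all 10 were among the 10950 genes tested. The 6 RNA libraries came from immature pig Sertoli cells, which support and feed developing germ cells in the seminiferous tubule. The 3 MT libraries came from cells given 10 nM melatonin, the night hormone of the pineal gland, over 36 h. The 3 Control libraries carry no dose or time, and whether they received solvent for the same time is not given in the sources used here. All 6 samples carry the same cell line, cell type and genotype labels, which name only immature Sertoli cells. No label ties the replicates to separate cultures or pigs, so the p-values rest on a spread between libraries that may be technical.

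In the methionine cycle, MAT2A makes S-adenosylmethionine, the methyl donor of the cell, and AHCY splits the S-adenosylhomocysteine that methylation leaves into homocysteine and adenosine. CBS joins homocysteine to serine to give cystathionine, and CTH cleaves cystathionine to cysteine. GCLC and GCLM, the catalytic and the modifier subunit of glutamate-cysteine ligase, join glutamate to cysteine, and GSS adds glycine to complete glutathione. GSR returns oxidised glutathione to the reduced form with NADPH, while CHAC1 and CHAC2 cleave glutathione in the cytosol. CHAC1 and CTH are known targets of the stress-induced factor ATF4, and GCLC and GCLM of the antioxidant factor NRF2.

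Levels are FPKM, fragments scaled to gene length and library size, so they can be compared between genes. Library totals, derived from the smallest steps in FPKM, lay between 19579279 and 21500665 reads. Control 3 stood apart from its group. Over the tested genes its correlation with Control 1 and Control 2 was 0.938 and 0.939, against 0.952 to 0.975 with the MT libraries and 0.993 between Control 1 and Control 2. Whether its label is right was not tested, and it is kept in the Control group as labelled. The log2 differences of the 10 genes are also given without it, as are many of the other results. Of the 18 Sertoli cell markers listed, 13 had a row. Clusterin (CLU), vimentin, keratin 18, WT1 and AMH were present in each library, with WT1 at 10.0 to 12.8 FPKM, while 4 of the 13 were under 0.1 FPKM in every library, namely INHA, DHH, KITLG and DMRT1. SOX9, the factor that specifies Sertoli cells, was at 1.61 to 2.40 FPKM, and GATA4 and FSHR matched no row by symbol and were not analysed here. In a sum over the list, CLU and vimentin outweigh the rest, and it was 5573 to 6612 FPKM in Control and 6585 to 6952 in MT. A row was found for 4 of 7 Leydig, 2 of 6 germ, 2 of 5 endothelial and 3 of 5 fibroblast markers. These lists summed to at most 5.001 FPKM in any library, without the markers that had no row. Of the Leydig markers, STAR (2.12 to 2.68 FPKM) and CYP11A1 (1.46 to 2.47) were near the level of SOX9. CYP17A1 and NR5A1 were under 0.1 FPKM in every library. The myoid list, which TAGLN outweighs, summed to 174.5 to 279.9 in Control and 178.8 to 210.4 in MT, and the macrophage list to 9.38 to 12.2 and 11.6 to 13.3. Single genes of these lists lay higher in every MT library than in any Control library, namely CD68 of macrophages (3.175 to 4.14 FPKM in Control, against 4.503 to 5.298 in MT) and MYLK of myoid cells (14.01 to 15.1, against 15.8 to 17.1). Neither passed with or without Control 3. Of the 3 myoid markers tested, 2 had a higher log2 mean in MT, and TAGLN was lower, with a log2 difference of -0.20. The 2 macrophage markers tested were both higher, CD14 by 0.07 with overlapping groups. ACTA2 and MYH11 of myoid cells reached at most 0.208 and 0.041 FPKM in any library. CD163 and CSF1R of macrophages reached at most 0.006 and 0.052. The part of such cells in the results below was not tested.

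CBS, CTH and CHAC1 stood higher in every MT library than in any Control library, GCLC and GCLM stood lower in MT than in Control 1 and Control 2 but not than in Control 3, and the other 5 genes had log2 differences of -0.16 to 0.25. In bulk RNA, fewer cells of a type and less RNA per cell cannot be told apart. In the limma fit over all 6 libraries, 0 of the 10 genes passed an adjusted p of 0.05 (Benjamini-Hochberg over all tested genes), as did 0.0% of the 10950. At an unadjusted p under 0.05 there were 3 of the 10, all higher in MT, against 4.72% of all tested genes in either direction and 2.33% upward. Groups did not overlap in the same 3 genes, against 11.2% of all tested genes, 6.24% upward and 4.99% downward. A log2 difference of at least 1 was reached by CTH and CHAC1, and upward by 18 of the 10950 genes (0.164%). The median of the 10 log2 differences was -0.06, beside 0.02 over all tested genes. Without Control 3, CBS, CTH and CHAC1 passed upward and GCLM downward in limma, while over all genes 4.28% passed upward and 6.62% downward. The genes were listed with earlier results of these data known, so these counts are a description.

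**Figure D1:**
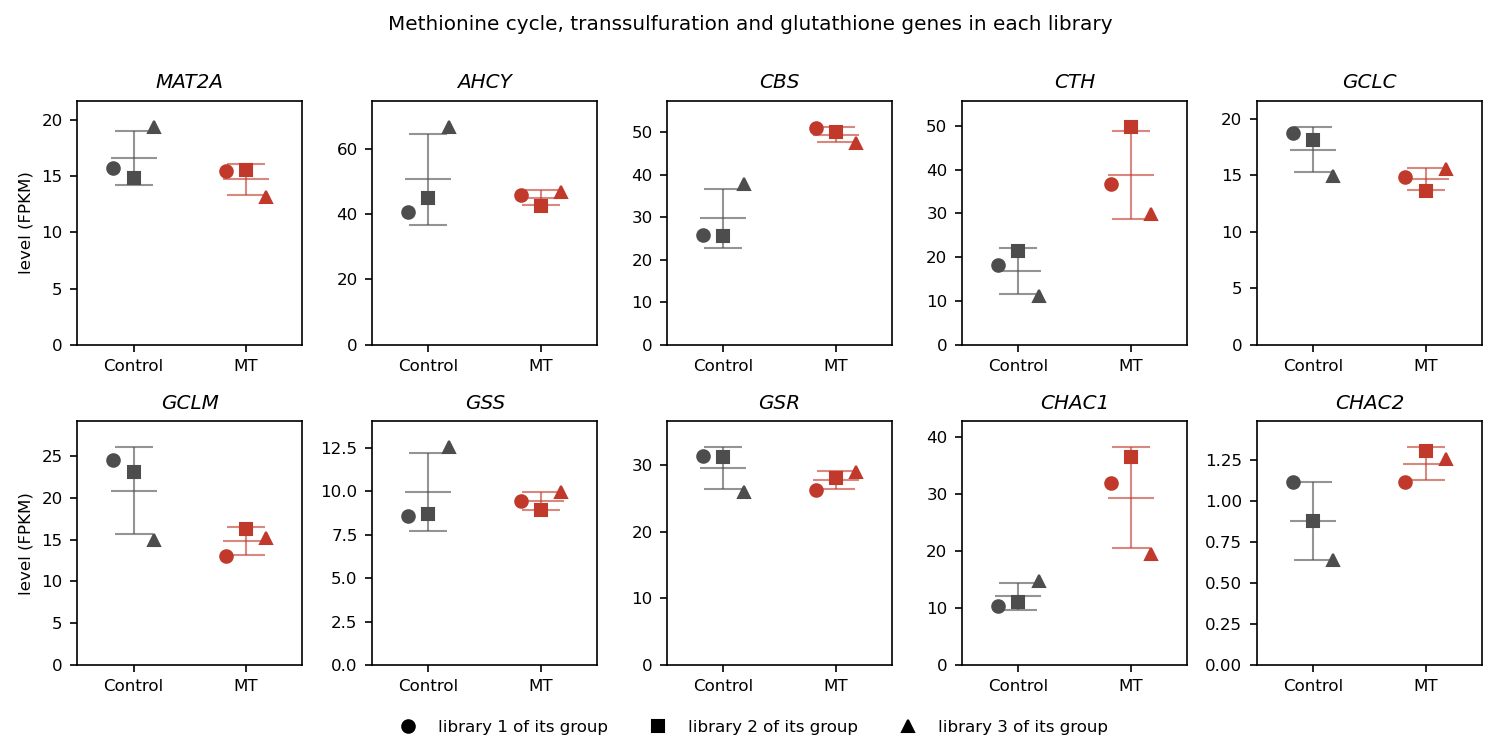
Level of each of the 10 genes in FPKM (vertical axes, each from 0) in the 3 Control libraries (grey) and the 3 MT libraries (red), with the group mean and SD as bars. The red points of CBS, CTH and CHAC1 lie above all grey points, and the triangle of Control 3 lies apart from the circle and square of Control 1 and Control 2 in most panels.

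In the methionine cycle, the difference between the groups exceeded the spread of the libraries in neither gene. MAT2A (ENSSSCG00000022300, chromosome 3, 59220203 to 59225097 of the Sscrofa11.1 assembly, as are all positions here) was at 15.7, 14.8 and 19.4 FPKM in Control 1 to 3 and at 15.4, 15.5 and 13.2 in MT 1 to 3. Control 3 was the highest library and MT 3 the lowest, and the other 4 lay within 1 FPKM of each other. The log2 difference was -0.16 (95% interval -0.49 to 0.16), and without Control 3 it was -0.06 (interval -0.27 to 0.16). AHCY (ENSSSCG00000007278, chromosome 17, 37726084 to 37744378) was at 40.6, 44.9 and 66.7 FPKM in Control, against 46.0, 42.6 and 46.7 in MT. The MT libraries lay together, and Control 3 alone stood far above the other 5. The log2 difference of AHCY was -0.13 (interval -0.58 to 0.31), and without Control 3 it was 0.08 (interval -0.11 to 0.26), so its sign rested on that library.

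Both transsulfuration genes were higher in MT. CBS (ENSSSCG00000040779, chromosome 13, 206205942 to 206231363) was at 25.8, 25.5 and 37.8 FPKM in Control 1 to 3, against 50.9, 49.9 and 47.5 in MT, or 29.7 ± 7.03 and 49.5 ± 1.74 (mean ± SD, n = 3). The lowest MT library was 1.26 times the highest Control library, and the MT libraries were tight. The log2 difference on the log2(FPKM + 1) scale was 0.74 (SE 0.17, adjusted p 0.48 in limma), and CBS ranked 73rd of 10950 by p. Without Control 3, whose level lay between those of the other Control libraries and those of MT, CBS rose by 0.92 (interval 0.77 to 1.08, adjusted p 0.0033 in limma).

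CTH (ENSSSCG00000003789, chromosome 6, 142454922 to 142486352) was at 18.3, 21.3 and 11.12 FPKM in Control 1 to 3, against 36.7, 49.8 and 29.9 in MT, or 16.9 ± 5.25 and 38.8 ± 10.1 (n = 3). Here Control 3 was the lowest library of all, on the far side from MT, and MT 2 was the highest. The lowest MT library was 1.40 times the highest Control library. The log2 difference was 1.17 (SE 0.27, adjusted p 0.54 in limma), and 36 tested genes, CHAC1 among them, differed by more in either direction. Without Control 3 CTH rose by 0.91 (interval 0.45 to 1.37, adjusted p 0.039).

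The same Control library thus had the highest CBS and the lowest CTH of its group. The level of CTH over that of CBS within a library was 0.71, 0.84 and 0.29 in Control 1 to 3 and 0.72, 0.996 and 0.63 in MT 1 to 3. Control 1 and Control 2 lay inside the MT range, which was wide, from 0.63 to 0.996. Each of the 2 genes was higher in MT, and whether their balance differed between the groups was not tested.

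The genes of glutamate-cysteine ligase lay on the other side. GCLC (ENSSSCG00000001488, chromosome 7, 27209565 to 27253535) was at 18.7, 18.1 and 14.995 FPKM in Control 1 to 3, against 14.9, 13.6 and 15.6 in MT, or 17.3 ± 2.005 and 14.7 ± 1.01 (n = 3). Control 3 lay inside the MT range, and Control 1 and Control 2 lay above all 3 MT libraries. The log2 difference was -0.22 (interval -0.51 to 0.08), and without Control 3 it was -0.31 (interval -0.50 to -0.12, adjusted p 0.051 in limma). GCLM (ENSSSCG00000037549, chromosome 4, 123371198 to 123390130) was at 24.5, 23.1 and 14.9 FPKM in Control 1 to 3, against 13.0, 16.3 and 15.2 in MT, or 20.9 ± 5.19 and 14.8 ± 1.68 (n = 3). Again Control 3 lay among the MT libraries. The log2 difference of GCLM was -0.44 (interval -0.92 to 0.04, adjusted p 1.0), and without Control 3 GCLM fell by 0.65 (interval -0.89 to -0.41, adjusted p 0.025 in limma).

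GCLM carried the larger difference of the subunits, so their balance was compared within each library. The level of GCLC over GCLM was 0.76, 0.78 and 1.005 in Control 1 to 3 and 1.14, 0.83 and 1.02 in MT 1 to 3. The groups overlapped through Control 3. The log2 ratio, on the scale with 1 FPKM added, was 0.22 higher in MT (exact permutation test over the 6 libraries, two-sided, p = 0.2, where 3 against 3 cannot go below 0.1). The difference was 0.34 without Control 3, 0.34 without MT 2 and 0.13 without MT 1.

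GSS and GSR, which finish and recycle glutathione, had the smallest differences in size of the 10 genes with all 6 libraries, while without Control 3 MAT2A and AHCY did. GSS (ENSSSCG00000007287, chromosome 17, 38316199 to 38342253) was at 8.60, 8.71 and 12.5 FPKM in Control 1 to 3, against 9.46, 8.93 and 9.98 in MT. Control 3 stood above all other libraries, and each MT library lay slightly above Control 1 and Control 2. The log2 difference of GSS was -0.05 (interval -0.43 to 0.33) with all libraries and 0.11 (interval -0.07 to 0.29) without Control 3. GSR (ENSSSCG00000015844, chromosome 15, 54382564 to 54433989) was at 31.4, 31.3 and 26.0 FPKM in Control 1 to 3, against 26.3, 28.02 and 29.0 in MT. Control 3 was the lowest library, and Control 1 and Control 2 were the highest. Its log2 difference was -0.08 (interval -0.36 to 0.20), and -0.17 (interval -0.33 to -0.003, adjusted p 0.13 in limma) without Control 3.

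CHAC1 and CTH had the largest log2 differences of the 10 genes, and which of them came first depended on the libraries. Without Control 1, for example, CHAC1 had 1.10 and CTH 1.24, and without Control 3 they had 1.33 and 0.91. CHAC1 (ENSSSCG00000038521, chromosome 1, 130360510 to 130363332) was at 10.4, 10.99 and 14.8 FPKM in Control 1 to 3, against 32.0, 36.6 and 19.5 in MT, or 12.04 ± 2.40 and 29.4 ± 8.87 (n = 3). Control 3 was the highest Control library and MT 3 the lowest MT library, and MT 3 was still 1.32 times Control 3. The ratio of the group means was 2.44. On the log2 scale the difference was 1.19 (SE 0.25, interval 0.59 to 1.78, adjusted p 0.43 in limma), with 31 of the 10950 genes further from 0. Without Control 3 CHAC1 rose by 1.33 (interval 0.78 to 1.89, adjusted p 0.031).

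CHAC2, the paralog with lower activity, was close to the limit for testing. CHAC2 (ENSSSCG00000037577, chromosome 3, 87405937 to 87417268) was at 1.11, 0.88 and 0.64 FPKM in Control 1 to 3, against 1.11, 1.30 and 1.26 in MT. Control 1 and MT 1 were level, so the groups touched. The values rested on 19 to 38 reads per library, against 314 or more for each of the other 9 genes in every library. Counting alone gives an error of 22.9% at 19 reads and of 5.64% at 314 reads. The log2 difference of 0.25 (interval -0.06 to 0.56), or 0.16 (interval -0.10 to 0.42) without Control 3, did not pass, and the scale with 1 FPKM added understates changes at such levels. Within a library, CHAC1 stood at 9.29, 12.5 and 23.2 times CHAC2 in Control 1 to 3 and at 28.8, 28.1 and 15.5 times in MT 1 to 3.

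**Figure D2:**
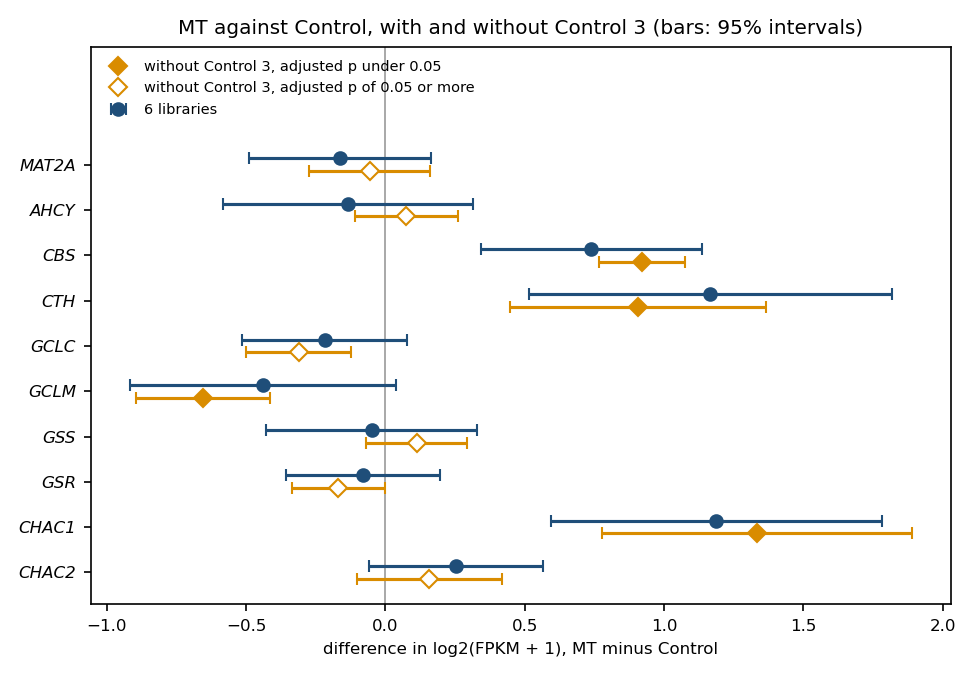
Difference between MT and Control on the log2(FPKM + 1) scale (horizontal axis) for each gene, with all 6 libraries (blue) and without Control 3 (orange, filled where the adjusted p was under 0.05), bars being 95% intervals. CBS, CTH and CHAC1 lie to the right of 0 in both fits, GCLM and GCLC to the left, and AHCY and GSS change sides when Control 3 is left out.

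The order of the 10 levels was not the same in the groups. AHCY was the highest in each Control library and CBS in each MT library, and CHAC2 was the lowest in all 6. CHAC1 lay below both GCLC and GCLM in all 3 Control libraries, narrowly so in Control 3 (14.8 against 14.995 and 14.9 FPKM), and above both in all 3 MT libraries. The level of CHAC1 over that of GCLC was 0.55, 0.61 and 0.99 in Control 1 to 3 and 2.15, 2.69 and 1.25 in MT 1 to 3. CTH ranked 6th, 5th and 9th in Control and 3rd, 2nd and 3rd in MT, and GSR ranked 2nd, 2nd and 3rd in Control and 5th, 5th and 4th in MT. Several neighbours cannot be parted: MAT2A, GCLC and GCLM lay within 13.0 to 16.3 FPKM in all MT libraries and overlapped there.

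Control 3 did not move the 10 genes one way. It lay above both other Control libraries in 5 genes (MAT2A, AHCY, CBS, GSS and CHAC1) and below both in the other 5. Its distance from the mean of Control 1 and Control 2 had a median size of 0.46 on the log2 scale over the 10 genes, beside 0.41 over all tested genes. Control 1 and Control 2 differed by a median of 0.08 in both sets. In GCLC and GCLM Control 3 lay inside the MT range, and in CBS and CHAC1 it lay between the other Control libraries and MT. Without it, 4 of the 10 genes lay wholly higher in MT and 3 wholly lower, where 25.9% and 30.3% of all tested genes did. GSS was the 4th gene above, and GCLC, GCLM and GSR were the 3 below.

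**Figure D3:**
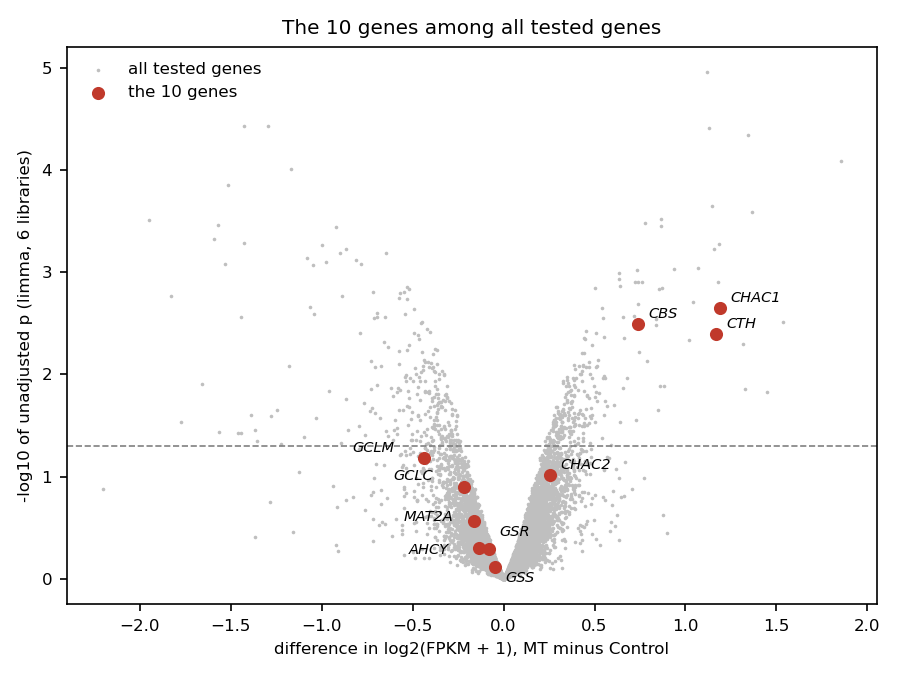
Each of the 10950 tested genes (grey) by its difference on the log2(FPKM + 1) scale (horizontal axis) and the -log10 of its unadjusted p in limma with 6 libraries (vertical axis), with the 10 genes in red and a dashed line at an unadjusted p of 0.05. CHAC1, CTH and CBS lie above the line on the MT side, and the other 7 lie below it.

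The genes whose levels followed those of CHAC1 most closely over the 6 libraries, among 9482 tested genes with a symbol, were TRIB3, a pseudokinase induced by stress, NFE2L1, a relative of NRF2 that drives proteasome genes, and HERPUD2. Pearson's r with CHAC1 was 0.995, 0.989 and 0.985, and Spearman's rho 0.94, 1 and 1. With 6 libraries in 2 groups and so many genes searched, such values are a description only. TRIB3 was at 14.1, 13.6 and 16.9 FPKM in Control, against 27.3, 31.3 and 19.4 in MT. NFE2L1 was at 60.4, 60.8 and 69.4 FPKM in Control, against 81.6, 87.2 and 70.8 in MT, a log2 difference of 0.32. HERPUD2 ran only from 19.3 to 21.4 FPKM, so its pattern was alike in shape and not in size. Among the 10 genes themselves, r with CHAC1 was 0.92 for CBS and 0.80 for CTH, and -0.89 for GCLC and -0.76 for GCLM.

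The wider pathway was read from 7 lists with 112 genes, of which 94 had a row and 84 were tested. In limma with 6 libraries 0 of the 84 passed, with 12 at an unadjusted p under 0.05, 9 of them higher, where 4.72% of all tested genes had such a p. Without Control 3, 9 passed upward and 5 downward, beside 4.28% and 6.62% of all tested genes. The median of their log2 differences was 0.00. The shares of 4.28% upward and 6.62% downward also stand beside the counts without Control 3 in each list below.

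Among genes of cysteine uptake and use, 0 of 11 passed with 6 libraries, and 2 rose without Control 3, beside 4.28% of all tested genes. SLC1A4, a carrier of small neutral amino acids such as serine and cysteine, was at 4.46, 4.89 and 5.90 FPKM in Control, against 9.46, 9.95 and 7.99 in MT, with no overlap, and rose by 0.83 on the log2 scale without Control 3. SLC3A2, the heavy chain shared by the cystine carrier and others, had a log2 difference of 0.44 and rose by 0.59 without Control 3. Its light chain for cystine, SLC7A11, was low, at 1.42, 1.31 and 0.42 FPKM in Control, against 1.40, 2.37 and 0.86 in MT, with overlapping groups. The log2 difference of SLC7A11 was 0.31, and 0.06 without Control 3. It was named after its values were seen. SQOR, which oxidises hydrogen sulfide in mitochondria, had a log2 difference of 0.25 and no overlap, but did not pass in either fit.

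In the list of the other methionine cycle and polyamine genes, 0 of 9 passed, and MTAP, which salvages methionine from methylthioadenosine, fell by 0.55 without Control 3. Its level in Control 3, 4.06 FPKM, was below all 3 MT libraries, and with all libraries its log2 difference was -0.21. MAT2B, the regulatory partner of MAT2A, had 0.18, but 0.02 without Control 3, its lowest library, and AHCYL2 had 0.10. In the list of the gamma-glutamyl cycle and peptide cleavage, 0 of 8 passed and OPLAH rose by 0.64 without Control 3. OPLAH opens 5-oxoproline, the product left when the CHAC enzymes or GGCT cleave a gamma-glutamyl bond, back to glutamate. It was at 13.5, 11.3 and 17.9 FPKM in Control 1 to 3, against 20.8, 19.0 and 19.95 in MT, with no overlap. LAP3 and CNDP2, which split peptides, had log2 differences of -0.13 and -0.04, and CNDP2 had 0.09 without Control 3.

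Of 15 tested enzymes that use glutathione, 0 passed with 6 libraries, and without Control 3 GPX4 rose, by 0.32, and the microsomal transferase MGST1 fell, by 0.52. Their log2 differences over all libraries were 0.14 and -0.29, with overlapping groups. MGST2 had 0.33, but 0.07 without Control 3, which at 1.19 FPKM was far below the other libraries. The secreted peroxidase GPX3 had 0.30, and 0.46 without Control 3, and neither gene passed in either fit. Of 11 genes of NADPH supply 0 passed, and ALDH1L2, the mitochondrial folate enzyme that yields NADPH, rose by 0.59 without Control 3 and had no overlap (14.1 to 22.2 FPKM in Control and 28.5 to 40.2 in MT). IDH1 fell by 0.28 without Control 3. PGD, an enzyme of the pentose phosphate pathway, had a log2 difference of -0.35, or -0.18 without Control 3, and passed in neither fit.

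The NRF2 list holds the factor, its partners, known targets, and KEAP1 and BACH1, which oppose it. In this list 13 of 15 tested genes had a lower log2 mean in MT, KEAP1 (-0.19) and BACH1 (-0.04) among them. The median difference was -0.14, where 44.0% of all tested genes were lower and their median was 0.02. Without Control 3 the median was -0.13, beside -0.004 over all tested genes. KEAP1, MAFG, SRXN1 and OSGIN1 then turned higher in MT, by 0.02, 0.001, 0.13 and 0.03. TALDO1 stayed higher (0.18 without Control 3), and NFE2L2 turned lower (-0.13). With 6 libraries 0 of the 15 passed. HMOX1, which breaks down haem, was at 5.79, 6.81 and 7.05 FPKM in Control, against 4.10, 4.25 and 3.09 in MT, and fell by 0.61 without Control 3. TXNRD1, thioredoxin reductase, was at 26.6, 29.2 and 27.4 FPKM, against 21.8, 21.7 and 20.5, and fell by 0.37. For both, Control 3 lay with its own group, unlike for GCLC and GCLM. The quinone reductase NQO1 had a log2 difference of -0.28 with no overlap and an adjusted p of 0.060 in limma without Control 3. NRF2 itself (NFE2L2) was at 11.8 to 19.5 FPKM in Control and 16.3 to 18.9 in MT.

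In the ATF4 list, 11 of 15 tested genes had a higher log2 mean in MT, with a median of 0.09, where 56.0% of all tested genes were higher. Without Control 3 the median was 0.17, beside -0.004 over all tested genes. With 6 libraries 0 of the 15 passed, and without Control 3, 4 rose, beside 4.28% of all tested genes. NUPR1, a stress-induced nuclear protein, was at 12.4, 12.4 and 11.9 FPKM in Control, against 29.2, 26.3 and 27.5 in MT, and had the smallest p of all tested genes (adjusted p 0.099 in limma). TRIB3 rose by 0.84 and SESN2, a brake on growth signalling under amino acid shortage, by 0.56 without Control 3. CEBPB, a transcription factor of the same list, lay lower in every MT library (99.8 to 104.9 FPKM) than in any Control library (111.4 to 205.3). Its log2 difference was -0.50, and -0.25 without Control 3, and it passed in neither fit. ATF4 matched no row by symbol and was not analysed here, and DDIT3, at 0.27 to 0.75 FPKM, was under the limit for testing.

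**Figure D4:**
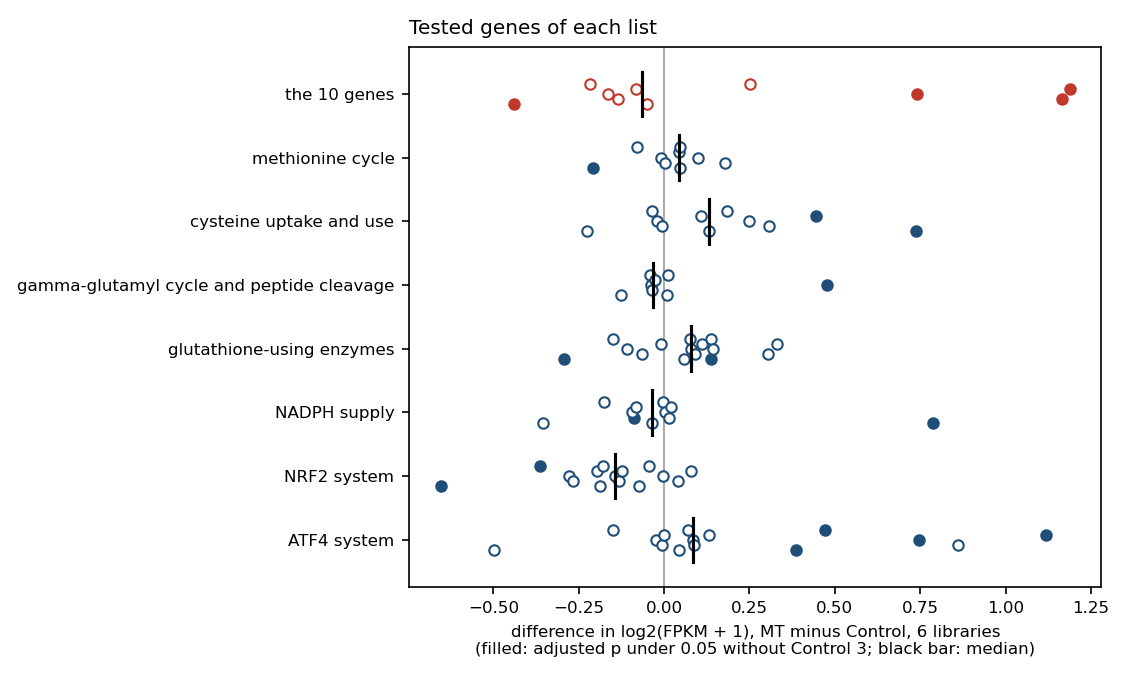
Difference between MT and Control on the log2(FPKM + 1) scale with 6 libraries (horizontal axis) for each tested gene of the 10 (red) and of the 7 lists (blue), filled where the adjusted p was under 0.05 without Control 3, with a black bar at each median. CHAC1 and CTH lie at the far right, and most points of the NRF2 list lie left of 0.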

How the data were processed

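Per the submitters' processing notes, bcl2fastq, HISAT2, featureCounts and Subread were used with the build Sscrofa11.1; tool versions, strand setting, filters and annotation release: not given in the sources used here. The authors deposited FPKM, 1 column per library. FPKM is tied to each library's sum, so abundant transcripts shift all other values. Symbols came from Ensembl identifiers (13173 of 20731 genes, 63.5%), and positions from RefSeq by symbol. Sequences were not used here.

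Whole reads and library totals were worked out from the FPKM steps (all 10950 tested genes within 0.01 of whole numbers). The chi-square per degree of freedom between libraries of a group was 6.34 to 149, so none is a copy of another. Limma 3.58.1 (R 4.3.3) was run on log2(FPKM + 1) of genes averaging 1 FPKM or more, with group as its sole term and a trended eBayes prior, two-sided. P-values were adjusted by Benjamini-Hochberg over 10950 genes, with a threshold of 0.05. The fit was also run on simulated counts with the same dispersion for every gene and no outlying library. That run does not cover a library such as Control 3. The 10 genes and all lists were chosen with earlier results of these data known. Named beside them are up to 3 genes of each pathway list with the smallest p (1 of them is not reported here) and the 3 most like CHAC1; SLC7A11, GPX4, IDH1, NFE2L2, DDIT3, CEBPB and marker genes were named after their values were seen. Alternatives changed the pseudocount, the filter, the scaling or the variance model, or used array weights, a replicate block, limma voom on reads, or 5 of the 6 libraries. Python 3.11.15 with numpy 2.4.6, pandas 2.3.3, scipy 1.17.1 and matplotlib 3.10.9 was used.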

Additional observations from a re-analysis of the deposited data

How the results depend on the processing

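Over 6 libraries, the count of 0 genes, 0 of the 10 and 0 pathway genes past the threshold held with every other pseudocount, filter, scaling and variance model, and with limma voom on reads (495 genes at an unadjusted p under 0.05, against 517). Limma array weights, which gave Control 3 a weight of 0.052, passed 6309 genes, 6 of the 10 (GSR and GCLC beside the 4 above) and 50 pathway genes, and turned CNDP2 to 0.13. With 1 library left out the counts ran from 0 to 1194 genes, 0 to 4 of the 10 and 0 to 14 pathway genes, with calls only without Control 3. There, quantile normalisation of the other 5 libraries, chosen after seeing the data, passed 1333, 5 and 16, and the share of calls that were higher went from 39.3% to 49.7%. Genes of the 10 without overlap numbered 5 with median-ratio scaling (10.9% of all tested genes) and 3 to 7 with 1 library left out. The 7 came without Control 3, where 56.2% of all tested genes did not overlap. The median of the 10 was 0.09 without Control 3. With 1 library left out the log2 differences were 0.65 to 0.92 for CBS, 0.91 to 1.35 for CTH, 1.01 to 1.45 for CHAC1, -0.65 to -0.31 for GCLM and -0.31 to -0.16 for GCLC, and AHCY and GSS changed sign only without Control 3, with array weights and with the added setting. Whether the replicate numbers pair the libraries was not settled. Between libraries of the same number, r of deviations over genes was -0.44, 0.63 and 0.34, against -0.625 to 0.50 between other numbers. Deviations within a group are tied to each other, so these values cannot decide it. A replicate block passed 0 genes and 0 of the 10, with 499 genes at an unadjusted p under 0.05. For the ratio of GCLC to GCLM the block gave p = 0.25 by an exact sign-flip permutation. That is the smallest p this test can give with 3 pairs, so it cannot show a difference or its absence. The causes were not tested. Depth limits CHAC2 among the 10.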

Other observations

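Within the MT group, CHAC1 and CTH shared the order MT 2 above MT 1 above MT 3, as did MAT2A, while 18.1% of all tested genes had that order. This was noticed after the values were seen and has no test, since replicates of a group have no order of their own. In the ATF4 list 8 of 15 tested genes had it: TRIB3, SESN2, VLDLR, STC2, ATF5, DDIT4, CEBPG and EIF2AK3. With 6 libraries the log2 differences of ATF5, DDIT4, CEBPG and EIF2AK3 were 0.0005, 0.09, -0.007 and 0.04. In the list of cysteine uptake and use 5 of 11 had it: SLC3A2, SLC7A11, SLC1A4, SQOR and SLC1A1. The log2 difference of SLC1A1 was -0.04, so the order was not confined to genes that were higher in MT. STC2, a secreted glycoprotein, was at 21.4, 25.3 and 20.8 FPKM in Control and at 43.5, 58.8 and 27.9 in MT. In the NRF2 list 3 of 15 had it, and in the gamma-glutamyl list 0 of 8.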
